A study of Mus musculus with 40 samples.

Results

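Histone marks at genes of the unfolded protein response and the integrated stress response were followed in mouse brown adipose tissue. The 10 genes, Atf4, Ddit3, Trib3, Xbp1, Hspa5, Ern1, Eif2ak3, Atf6, Chac1 and Asns, were chosen by name and form 10 of the 21911 protein-coding genes considered. For each gene, every peak over the gene body and 10 kb on each side was collected from 32 peak lists, which gave 372 of the 457842 peaks of the series. The lists cover 4 marks in 8 wild type C57BL/6N mice aged 20 weeks: trimethylation of histone H3 lysine 4 (H3K4me3), found at active and poised promoters; acetylation of lysine 27 (H3K27ac), found at active promoters and enhancers; monomethylation of lysine 4 (H3K4me1), typical of enhancers; and trimethylation of lysine 27 (H3K27me3), the Polycomb mark of repressed genes. Mice 1 and 2 were kept warm, meaning the ordinary room temperature of the study, on a normal chow diet (NCD). Mice 4 and 5 were kept at 4 °C for 24 h on NCD. Mice 7 and 8 were kept warm and ate a high-fat diet (HFD), begun at 8 weeks of age and given for 12 weeks. Mice 10 and 11 received the same HFD and the same cold treatment. The methods of the study name the tissue as interscapular brown fat, whereas the design text of the series names an inguinal depot. All coordinates are GRCm38. In bulk tissue, fewer cells of a type and less of a mark per cell cannot be told apart.

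The unfolded protein response is set off when misfolded proteins build up in the endoplasmic reticulum (ER). Sensor proteins in the ER membrane, encoded by Ern1 (IRE1 alpha), Eif2ak3 (PERK) and Atf6, raise chaperones and other stress genes through the factors XBP1, ATF6 and ATF4. PERK slows translation by phosphorylating the initiation factor eIF2, a step it shares with the other eIF2 kinases. The common arm downstream of eIF2 and ATF4 is called the integrated stress response. ATF4 drives Ddit3 (CHOP), Trib3, Chac1 and Asns, and the main chaperone of the ER is BiP, encoded by Hspa5. In brown fat, mitochondrial stress is known to engage the ATF4 arm.

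The sequences below were chosen because they carry a stress element in the promoter or lie under an acetylated region described further on. Promoter sequences of 9 of the 10 genes were found in RefSeq (GRCm38.p6), in windows from 250 bases before to 50 bases after the start, and Atf6 was not among them. Both strands of these windows were searched for the ER stress element (ERSE, the letters CCAAT and CCACG with 9 bases between them), the ERSE-II (ATTGG and CCACG with 1 base between them), the CHOP and ATF4 composite element (CARE, TGATGNAA), the XBP1 and ATF6 element TGACGTGG, the cyclic AMP element TGACGTCA, and CCAAT alone, which overlaps the ERSE. The ERSE was present in 0.119% of all 32851 promoters and in 1 of the 9, Hspa5. A CARE was present in 3.97% of promoters and in 3 of the 9, Trib3, Chac1 and Asns. The ERSE-II, TGACGTGG and TGACGTCA were found in 0.0365%, 0.676% and 1.79% of promoters and in none of the 9, and CCAAT in 37.4% of promoters and in 5 of the 9. Such a match is a description of the letters and not a bound site. The bases are given 5′ to 3′ along the gene, and capitals mark an ERSE or a CARE. They end at the RefSeq start or at most 30 bases past the outermost GENCODE start, so that the ERSE of Hspa5 stands on a line of its own. Atf4, which carried CCAAT alone, is shown for comparison.
Hspa5 upstream, chr2:34771840-34771999, plus strand: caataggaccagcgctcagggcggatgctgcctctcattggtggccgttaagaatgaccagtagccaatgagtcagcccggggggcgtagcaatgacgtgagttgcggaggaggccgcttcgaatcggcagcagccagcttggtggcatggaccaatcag
Hspa5 ERSE, chr2:34772025-34772043, plus strand: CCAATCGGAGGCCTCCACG
Chac1 upstream, chr2:119350992-119351241, plus strand: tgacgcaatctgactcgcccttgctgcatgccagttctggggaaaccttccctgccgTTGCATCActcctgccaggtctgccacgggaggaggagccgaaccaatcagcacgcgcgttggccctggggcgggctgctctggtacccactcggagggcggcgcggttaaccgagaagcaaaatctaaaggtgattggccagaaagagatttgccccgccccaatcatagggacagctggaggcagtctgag
Asns upstream, chr6:7693225-7693459, minus strand: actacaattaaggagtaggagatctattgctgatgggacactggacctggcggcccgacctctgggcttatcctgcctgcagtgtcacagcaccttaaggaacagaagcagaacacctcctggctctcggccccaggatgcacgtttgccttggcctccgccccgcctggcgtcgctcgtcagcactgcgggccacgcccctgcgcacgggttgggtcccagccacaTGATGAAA
Atf4 upstream, chr15:80254934-80255183, plus strand: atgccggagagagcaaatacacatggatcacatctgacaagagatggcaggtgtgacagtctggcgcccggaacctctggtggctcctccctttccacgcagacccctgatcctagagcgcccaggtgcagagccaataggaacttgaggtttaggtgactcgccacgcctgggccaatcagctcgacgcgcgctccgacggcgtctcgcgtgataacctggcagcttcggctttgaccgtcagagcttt
Eif2ak3 acetylated region before the start site, chr6:70843277-70843476, plus strand: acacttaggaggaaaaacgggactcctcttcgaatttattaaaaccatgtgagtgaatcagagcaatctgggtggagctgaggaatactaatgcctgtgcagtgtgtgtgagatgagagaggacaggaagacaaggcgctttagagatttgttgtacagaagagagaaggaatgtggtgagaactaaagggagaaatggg
Asns acetylated region in an intron, chr6:7688644-7688843, minus strand: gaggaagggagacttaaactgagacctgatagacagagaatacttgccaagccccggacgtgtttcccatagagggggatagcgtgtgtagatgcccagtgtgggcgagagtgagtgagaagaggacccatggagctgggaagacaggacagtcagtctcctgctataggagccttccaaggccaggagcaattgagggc

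The ERSE of Hspa5 began 65 bases before the RefSeq start. The CARE began 193 bases before the start in Chac1, on the opposite strand, and 23 bases before it in Asns. In Trib3 the CARE (TTACATCA, opposite strand) began at base 15 of the RefSeq transcript. An H3K4me3 peak covered the element in 6 of 8 mice at Hspa5 and in 7 of 8 at each of Trib3, Chac1 and Asns. An H3K27ac peak covered it in 2 mice at Trib3, 1 at Asns and none at Hspa5 and Chac1. The 200 bases of the regions of Eif2ak3 and Asns were centred on the median summit of their H3K27ac peaks, overlapped no annotated exon and held none of the 6 motifs.

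Lists differed much in length, which bears on every count below. H3K4me3 lists held 13517 to 24104 peaks and H3K27ac lists 3224 to 40604, with mouse 7 lowest in both. H3K4me1 lists held 592, 12 and 18 peaks in mice 1, 7 and 10, and 7774 to 27568 in the others. H3K27me3 lists held 20 to 6428. Sequencing depth is not known from these lists. Of 8 adipocyte markers, Cidea, Dio2 and Pparg carried H3K4me3 and H3K27ac at the start site in 8 of 8 mice, and the numbers of mice with H3K4me3 and H3K27ac were 8 and 5 for Ucp1, 7 and 6 for Adipoq, 7 and 3 for Prdm16, 4 and 4 for Fabp4 and 3 and 4 for Ppargc1a. Of 5 skeletal muscle markers, Acta1 carried H3K4me3 in 4 mice and Pygm in 3, Myog carried H3K27ac in 1, and Myod1 and Ckm carried neither. The liver gene Alb and the neuronal gene Neurod1 carried neither in any mouse. The endothelial genes Pecam1 and Cdh5 carried H3K4me3 in 6 and 4 mice and H3K27ac in 7 and 6.

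A gene was taken to carry a mark when a peak summit lay within 1000 bp of an annotated start site, and its breadth was the summed width of those peaks, with 0 where none was listed. By this rule 8 of the 10 genes carried H3K4me3 in all 8 mice, and Trib3 and Chac1 carried it in all but mouse 7. Among all protein-coding genes 41.5% carried H3K4me3 in all 8 mice. H3K27ac was less regular. It lay at the start site in 8 mice for Atf4 and Hspa5, 7 for Xbp1 and Atf6, 6 for Ddit3, 5 for Trib3, 4 for Ern1, 3 for Eif2ak3 and Asns, and 0 for Chac1. Of all protein-coding genes, 3.11% had it in all 8 mice and 50.9% in none. Of those with H3K4me3 in 7 or 8 mice, 5.78% had it in all 8 and 12.3% in none. These numbers rest on the length of the lists. When each H3K27ac list was reduced to the 3224 peaks of lowest p, the length of that of mouse 7, Atf4 and Hspa5 remained in 8 mice and Ddit3 in 6, Xbp1 was in 1, and the other 6 genes were in none. Of all coding genes, 1.47% then had the mark in all 8 mice. Without mouse 7, whose H3K27ac list named 3.64% of coding genes, 4 of the 10 genes and 15.3% of all coding genes had the mark in every remaining mouse. H3K4me1 lay at the start site in mice 5 and 11 for Eif2ak3 and mouse 2 for Chac1, 2 of 10 genes beside 18.6% of all coding genes with it in at least 1 list. H3K27me3 gave no peak over any of the 10 loci in any mouse, against 6.23% of coding genes with it at the start site in at least 1 list.

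**Figure D1:**
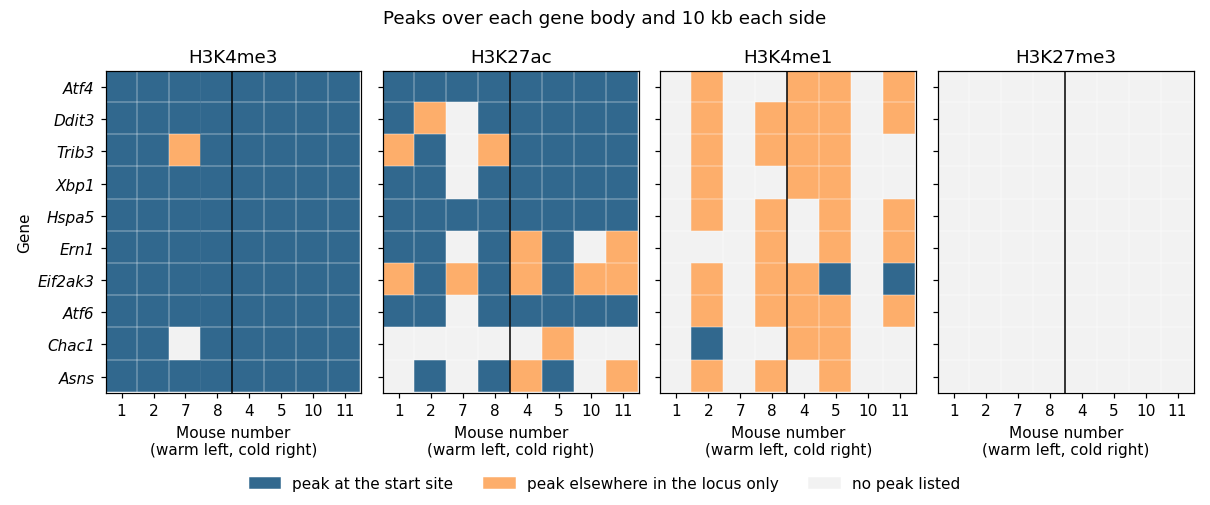
Each cell is 1 gene (rows) in 1 mouse (columns, numbered, warm mice left of the line) for 1 of the 4 marks, coloured by whether a peak lay at the start site, only elsewhere in the gene body or its 10 kb flanks, or nowhere. H3K4me3 is filled but for Trib3 and Chac1 in mouse 7, H3K27ac is patchy with mouse 7 nearly empty, and H3K27me3 is empty.

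Among the sensors, Ern1 (chr11:106394650-106487852, minus strand), the kinase and ribonuclease that splices Xbp1 RNA, had H3K4me3 breadths of 1726 and 1974 bp in the warm NCD mice, 1467 and 1582 bp in the cold NCD mice, 365 and 1580 bp in the warm HFD mice, and 855 and 1811 bp in the cold HFD mice. The values overlapped between temperatures and between diets, with mouse 7 lowest and mouse 10 next. H3K27ac measured 217 and 1370 bp in the warm NCD mice, 0 and 1124 bp in the cold NCD mice, 0 and 779 bp in the warm HFD mice and 0 in both cold HFD mice. It was thus listed in 3 of 4 warm and 1 of 4 cold mice, which Fisher's exact test did not separate (p = 0.486, adjusted p = 1).

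Eif2ak3 (chr6:70844515-70905245, plus strand), the kinase PERK, had H3K4me3 breadths of 2300 and 2369 bp in the warm NCD mice, 1555 and 2032 bp in the cold NCD mice, 207 and 2299 bp in the warm HFD mice, and 1055 and 1253 bp in the cold HFD mice. Mouse 7 was the narrowest of the 8. The mark lay in a pair of blocks around the start site in 6 mice, and in mice 7, 10 and 11 the upstream block, of 914, 1027 and 1424 bp, was not counted because its summit lay at −1111, −1125 and −1110 bp, just outside the 1000 bp window. With any overlap with the window counted, these mice measured 1121, 2082 and 2677 bp and the other mice were unchanged, which made mouse 11 the widest of the 8 and left mouse 7 the narrowest. The acetylation of Eif2ak3 lay beside the start site rather than on it. A region at chr6:70842538-70844194, with its median summit at −1138 bp from the start site and its near edge at −321 bp, had H3K27ac in 8 of 8 mice and overlapped H3K4me3 in 8 of 8. Peaks past the start site were listed in mice 2, 5 and 8 only, at 314, 589 and 419 bp. With any overlap counted, Eif2ak3 carried H3K27ac in 8 mice in place of 3, at 311 to 1795 bp.

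Atf6 (chr1:170704674-170867771, minus strand), the sensor that is cut in the Golgi and enters the nucleus, varied little. Its H3K4me3 breadths were 2006 and 2073 bp in the warm NCD mice, 1834 and 2030 bp in the cold NCD mice, 1802 and 2280 bp in the warm HFD mice, and 2187 and 2237 bp in the cold HFD mice, 2056 ± 176 bp over all (SD, n = 8). H3K27ac measured 859 and 1601 bp in the warm NCD mice, 950 and 910 bp in the cold NCD mice, 0 and 1459 bp in the warm HFD mice, and 434 and 857 bp in the cold HFD mice, with mouse 7 alone at 0. A second acetylated region lay beyond the 3′ end of the gene, at chr1:170693064-170696826, in all mice but mouse 7, and H3K4me1 overlapped it in 5 mice.

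**Figure D2:**
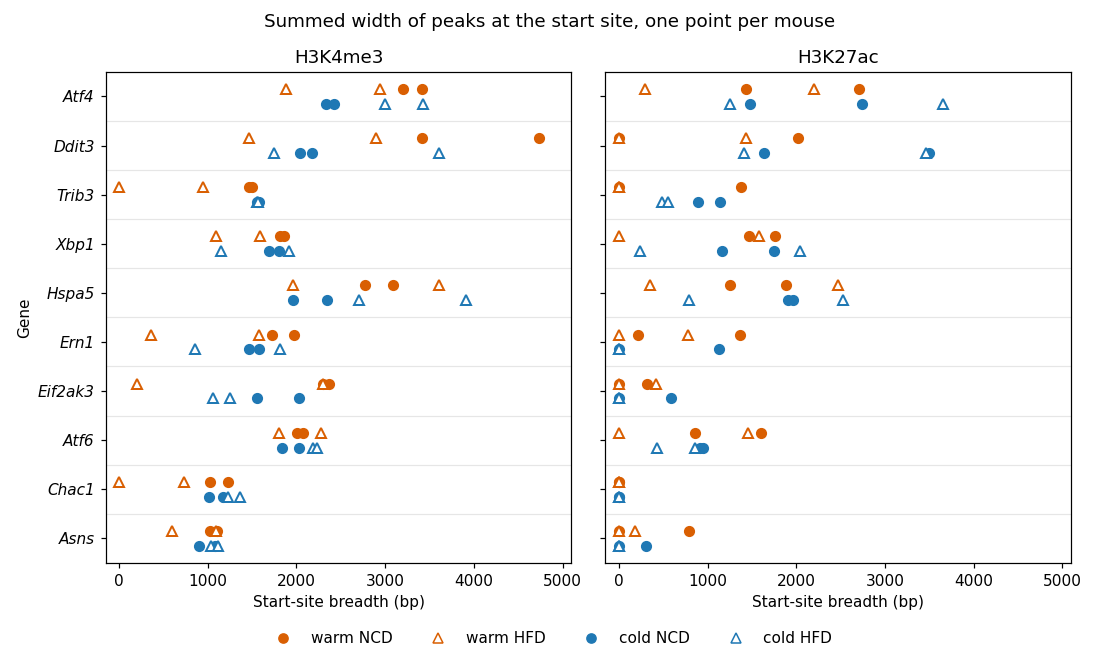
Start-site breadth in bp (x axis) of H3K4me3 (left) and H3K27ac (right) for each gene (rows), with 1 point per mouse, orange for warm, blue for cold, filled circles for NCD and open triangles for HFD. Warm and cold points overlap for every gene and mark except H3K4me3 at Trib3, where the 4 cold mice lie between 1557 and 1583 bp and the warm mice between 0 and 1501 bp.

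The widest H3K4me3 of the 10 genes was that of Atf4, Hspa5 and Ddit3. Atf4 (chr15:80255184-80257541, plus strand), the central factor of the integrated stress response, had breadths of 3204 and 3419 bp in the warm NCD mice, 2336 and 2418 bp in the cold NCD mice, 1878 and 2946 bp in the warm HFD mice, and 3001 and 3426 bp in the cold HFD mice. Its median of 2973.5 bp was at percentile 93.5 of the 9095 genes with H3K4me3 in all mice, whose own median was 1635 bp. On NCD both cold mice were narrower than both warm mice, and on HFD both cold mice were wider. H3K27ac at Atf4 measured 1428 and 2707 bp in the warm NCD mice, 1478 and 2741 bp in the cold NCD mice, 300 and 2198 bp in the warm HFD mice, and 1249 and 3650 bp in the cold HFD mice, so that the 2 mice of each condition differed more than the conditions did.

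Ddit3 (chr10:127290774-127296288, plus strand), whose product CHOP acts in prolonged stress, showed the largest spread of H3K4me3, with 3411 and 4730 bp in the warm NCD mice, 2039 and 2171 bp in the cold NCD mice, 1470 and 2899 bp in the warm HFD mice, and 1750 and 3605 bp in the cold HFD mice. The start site of Mbd6, on the opposite strand, lies at −1756 bp from that of Ddit3, and the joined H3K4me3 region of 7748 bp spanned both, so part of this breadth cannot be assigned to either gene. H3K27ac measured 2020 bp in mouse 1, 1633 and 3496 bp in the cold NCD mice, 1435 bp in mouse 8, and 1416 and 3461 bp in the cold HFD mice. It was at 0 in mice 2 and 7. In the 6 mice with the mark, the highest counted peak had its summit at −757 to −598 bp, between the start sites of Ddit3 and Mbd6. A counted peak covered the Ddit3 start site in 1 mouse, so part of this acetylation cannot be assigned to either gene. In mouse 2 a peak of 3657 bp covered the Ddit3 start site but had its summit 2787 bp past it, and with any overlap counted the mark was present in 7 mice and measured 4936 bp in mouse 2. In the same way H3K4me3 of mouse 10 became 2809 bp.

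Xbp1 (chr11:5520659-5525893, plus strand), whose RNA is spliced by IRE1 alpha, had H3K4me3 breadths of 1810 and 1862 bp in the warm NCD mice, 1692 and 1800 bp in the cold NCD mice, 1094 and 1588 bp in the warm HFD mice, and 1146 and 1913 bp in the cold HFD mice. H3K27ac was of like width, with 1472 and 1760 bp, 1164 and 1748 bp, 0 and 1575 bp, and 238 and 2040 bp in the same order. Mice 7 and 10 were lowest for both marks.

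Among the targets, Hspa5 (chr2:34771970-34777547, plus strand) had H3K4me3 breadths of 2769 and 3093 bp in the warm NCD mice, 1963 and 2347 bp in the cold NCD mice, 1965 and 3609 bp in the warm HFD mice, and 2700 and 3912 bp in the cold HFD mice, a median at percentile 91.1 of the same 9095 genes. H3K27ac measured 1255 and 1883 bp, 1964 and 1904 bp, 355 and 2475 bp, and 791 and 2528 bp in the same order. The acetylation was split around the start site. The first region ended at −125 bp from the outermost start site and held a peak in 8 of 8 mice, the second began 135 bp past it and held one in 7 of 8, and the ERSE shown above lay in the gap between them.

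**Figure D3:**
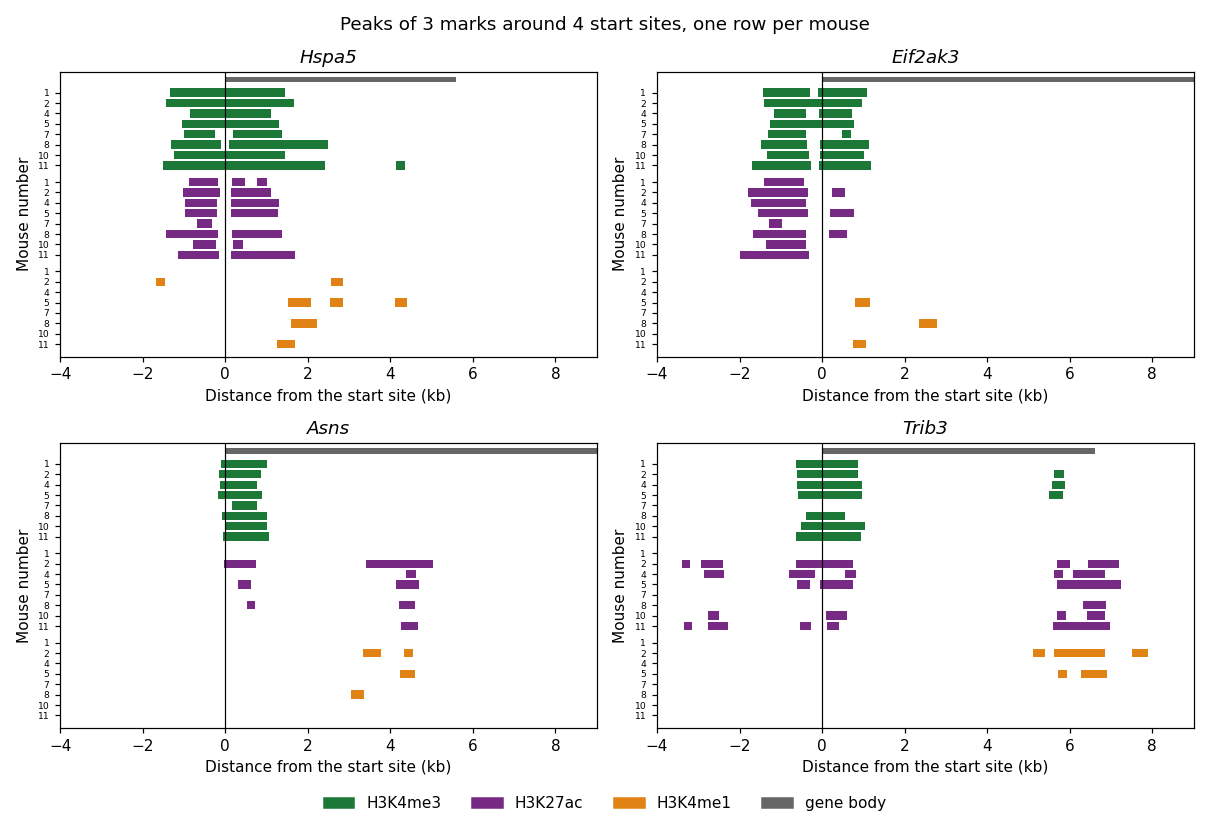
Peaks of H3K4me3, H3K27ac and H3K4me1 around the start sites of Hspa5, Eif2ak3, Asns and Trib3, drawn to scale as distance from the outermost start site in kb (x axis, positive along transcription), with 1 row per mouse and mark. H3K27ac flanks the Hspa5 start site in 7 mice, ends before the Eif2ak3 start site in 8 and forms a separate block inside Asns in 5.

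Trib3 (chr2:152337422-152344032, minus strand), a pseudokinase induced by ATF4 and CHOP, had H3K4me3 breadths of 1501 and 1471 bp in the warm NCD mice, 1583 and 1557 bp in the cold NCD mice, 0 and 943 bp in the warm HFD mice, and 1559 and 1570 bp in the cold HFD mice. The 4 cold mice were all above the 4 warm mice, with the warm NCD mice close below them and the warm HFD mice far below. H3K27ac was listed in all 4 cold mice, at 897, 1138, 490 and 559 bp, and in 1 of 4 warm mice, mouse 2, at 1381 bp (Fisher's exact test, p = 0.143, adjusted p = 1). A −log10 q minimum of 5 reduced this to 2 cold mice and 1 warm mouse, and with lists of equal length no mouse had it. Another acetylated region, at chr2:152336794-152338438 over the 3′ end of the gene, held a peak in 4 cold and 2 warm mice, and a further one with a median summit at −2660 bp from the start site in 3 cold and 1 warm mice.

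Chac1 (chr2:119351229-119354381, plus strand), an enzyme that degrades glutathione, had narrow H3K4me3 of 1029 and 1225 bp in the warm NCD mice, 1012 and 1176 bp in the cold NCD mice, 0 and 731 bp in the warm HFD mice, and 1367 and 1233 bp in the cold HFD mice. It had no H3K27ac at the start site in any mouse. Over its whole locus a single H3K27ac peak of 205 bp was listed, in mouse 5, with its summit 3750 bp past the start site. Of the 2295 protein-coding genes with H3K4me3 in 7 mice, as at Chac1, 40.1% likewise had H3K27ac at the start site in none, against 5.28% of the 9095 with H3K4me3 in 8.

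Asns (chr6:7675169-7693254, minus strand), which encodes asparagine synthetase, had H3K4me3 of 1106 and 1029 bp in the warm NCD mice, 900 and 1077 bp in the cold NCD mice, 601 and 1094 bp in the warm HFD mice, and 1035 and 1112 bp in the cold HFD mice. Its median of 1056 bp was at percentile 11.8 of the 9095 genes, the lowest among the 8 genes with the mark in all mice. H3K27ac at the start site was listed in mice 2, 5 and 8, at 786, 303 and 187 bp. More mice had it inside the gene, at chr6:7688220-7689837, where a region with a median summit 4510 bp past the start site held a peak in mice 2, 4, 5, 8 and 11, and H3K4me1 overlapped it in 2 mice.

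Which of these start sites differed by temperature was asked over 4 cold and 4 warm mice. No gene of the 10 carried H3K4me3 or H3K27ac in every mouse at one temperature while lacking it in every mouse at the other, against 0.0638% of 14112 and 0.102% of 10769 genes tested. For breadth, Trib3 was the 1 gene of the 10 without overlap in H3K4me3, against 0.716% of all genes tested, of which 95 were wider in cold and 6 in warm. Its mean was 1567 ± 12.0 bp in cold and 979 ± 701 bp in warm (SD, n = 4), a difference of 588.5 bp (two-sided exact permutation test, p = 0.0286, the smallest the design allows, adjusted p = 1). Leaving out mouse 7, where no peak was listed, reduced the difference to 262 bp. Without mouse 7 a second gene, Eif2ak3, had no overlap, at 1055 to 2032 bp in cold and 2299 to 2369 bp in warm, beside 2.46% of all genes tested without mouse 7, but this ended when the upstream block of mouse 11 was counted. For H3K27ac none of the 9 genes with the mark was without overlap, against 0.669% of all genes tested. Leaving out mouse 2 would leave Trib3 without overlap, at 490 to 1138 bp in cold and 0 in warm, beside 2.28% of all genes tested without that mouse. Cold mice were on average wider at 6 of the 10 genes for H3K4me3 and at 5 of 9 for H3K27ac, beside 64.8% and 66.7% of all genes tested. The median difference of 24.6 bp and 95.8 bp stood beside 79.0 bp and 81.2 bp over all genes tested.

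By diet, too, no gene of the 10 had either mark in every mouse on one diet while lacking it in every mouse on the other, against 0.177% of genes tested for H3K4me3 and 0.13% for H3K27ac. Breadth overlapped between diets for all 10 genes in H3K4me3 and for the 9 genes with H3K27ac, against 3.43% and 1.1% of genes without overlap. HFD mice were narrower on average at 8 of 10 genes for H3K4me3 and at 9 of 9 for H3K27ac. The medians were −317 bp and −239 bp, beside −172 bp and −217 bp over all genes tested, of which 73.4% and 83.8% were narrower in HFD. The shortest lists of both marks, those of mice 7 and 10, were HFD lists, and their part in this difference was not tested. Of the muscle markers, Acta1 carried H3K4me3 in all NCD mice, at 318 to 973 bp, and in no HFD mouse. Pygm carried it in 3 mice, all of them on NCD, at up to 890 bp. The H3K4me3 of Myod1, Myog and Ckm was at 0 in all 8. With mice 7 and 10 left out, 2 HFD mice were compared with 4 NCD mice. Breadth then did not overlap at 18.5% of all genes tested for H3K4me3 and 11.2% for H3K27ac. At 2 of the 10 genes for H3K4me3 and 1 for H3K27ac this was so. Hspa5 was wider in both remaining HFD mice than in all 4 NCD mice, at 3609 and 3912 bp against 1963 to 3093 bp for H3K4me3 and at 2475 and 2528 bp against 1255 to 1964 bp for H3K27ac. At Atf6 this was seen for H3K4me3, with 2237 to 2280 bp against 1834 to 2073 bp.

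Whether the cold response differed by diet was tested as an interaction. At Atf4 the cold mice had narrower H3K4me3 than the warm mice on NCD and wider on HFD, as given above, with an exact permutation p of 0.0286 and an adjusted p of 0.413. It was the 1 gene of the 10 with an unadjusted p below 0.05 for H3K4me3, against 4.65% of genes tested, and none was for H3K27ac, against 0.0279%. The H3K4me3 interaction, cold minus warm on NCD less the same on HFD, was negative at all 10 genes. It ran from −2458.5 bp at Ddit3 to −278.5 bp at Xbp1 and Atf6. Median peak widths of the H3K4me3 lists were 1117 and 1110 bp in warm NCD and 839 and 957 bp in cold NCD mice. They were 597 and 1010 bp in warm HFD and 896 and 1031 bp in cold HFD mice. The part of list widths in the interaction was not tested. No gene of the series passed the adjustment for temperature, diet or interaction in either mark, and an exact test of 4 against 4 mice over this many genes could not have let one pass unless very many had the smallest p.

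H3K4me3 was compared with H3K27ac at the start site over the 8 mice. H3K4me3 was wider at 7 of the 10 genes by an exact permutation test (two-sided, 12870 assignments) with Benjamini-Hochberg adjustment, against 74.2% of the 14249 genes tested. Eif2ak3 had 1634 ± 766 bp of H3K4me3 and 165 ± 240 bp of H3K27ac (SD, n = 8, exact permutation, adjusted p = 0.00199), a difference of 1468.5 bp that became 738.5 bp when peaks beside the start site were counted by any overlap (exact permutation, adjusted p = 0.0186). Atf6 differed by 1172 bp (exact permutation, adjusted p = 0.000757), Hspa5 by 1150 bp (0.0115), Ern1 by 984 bp (0.00995), Chac1 by 972 bp (0.00304), Asns by 835 bp (0.00121) and Trib3 by 715 bp (0.0349). The call at Trib3 was lost without mouse 1, 4, 8, 10 or 11, with exact permutation adjusted p of 0.0594 to 0.0951, and by width percentile. The other 3 genes did not pass, with 860 bp at Atf4 (exact permutation, adjusted p = 0.0805), 1077 bp at Ddit3 (0.122) and 363.5 bp at Xbp1 (0.287). With lists of equal length within each mark Ddit3 and Xbp1 passed (exact permutation, adjusted p = 0.00031 and 0.000857). Each list was then cut to 13517 peaks for H3K4me3 but to 3224 for H3K27ac. This cut by itself narrows H3K27ac, so it cannot serve as a check of the difference. With a summit within 500 bp Ddit3 passed (exact permutation, adjusted p = 0.00784). With any overlap counted, the difference at Ddit3 was 563 bp. Within mice, with the mouse number as a block in an exact permutation test over 256 sign flips, Atf4 passed as well (adjusted p = 0.0413) and Ddit3 and Xbp1 did not (0.0869 and 0.0706). The median difference was 978 bp over the 10 genes and 838 bp over all genes tested.

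Away from the start sites, peaks of different mice were joined into regions wherever they overlapped. The 10 loci held 15 regions of H3K4me3, of which 10 were in all 8 mice, and 34 of H3K27ac, of which 3 were in all 8. Of the H3K27ac regions, 12 lay at the start site of one of the 10 genes, 4 at that of a neighbour (Rps19bp1 by Atf4, Mbd6 by Ddit3 and Rbck1 by Trib3), 8 in a gene body, 5 upstream and 5 downstream. The 44 regions of H3K4me1 lay mostly away from start sites, with 22 in a gene body and 13 downstream, and 22 of them were seen in 1 mouse. No H3K4me1 peak was listed over any of the 10 loci in mice 1, 7 and 10. The H3K4me1 regions seen in most mice were in the body of Ddit3, with a summit 2902 bp past the start site, and beyond the 3′ end of Atf6, each in mice 2, 4, 5, 8 and 11. No region of H3K4me3 or H3K27ac had a peak in all mice of one temperature or diet and none of the other. Over the genome this was so for 0.16% of H3K4me3 and 0.326% of H3K27ac regions by temperature and for 0.612% and 0.0883% by diet. For H3K4me1 it could not occur, because each temperature and each diet included mouse 1, 7 or 10.

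Of 50 other genes of the same pathways, 41 carried H3K4me3 at the start site in all 8 mice. H3K27ac was present in 7 or 8 mice for 18 of the 50, beside 15.6% of all coding genes and 29.1% of those with H3K4me3 in 7 or 8 mice, and in none for 9, beside 50.9% and 12.3%. H3K27me3 was present in none of the 50. Among the transcription factors, H3K27ac was present for 5 of 6 genes in 7 or 8 mice, among them Atf3, Atf5 and Nfe2l2, the regulator of oxidative stress genes. ER chaperones such as Hsp90b1, Calr and Manf were acetylated in 7 mice each, yet the group reached 7 or 8 mice in 4 of 13. Of the genes of amino acid and one-carbon metabolism, 5 of 10 had H3K27ac in no mouse, beside the 50.9% and 12.3% given above. These were Psat1 and Phgdh of serine synthesis, Mthfd2 of the mitochondrial folate pathway, and the transporters Slc7a11 and Slc7a5. Psat1, Phgdh and Mthfd2 carried H3K4me3 in 8, 7 and 7 mice, and the transporters in 4 and 6. Slc3a2, the partner chain of those transporters, had H3K27ac in 8 mice.

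**Figure D4:**
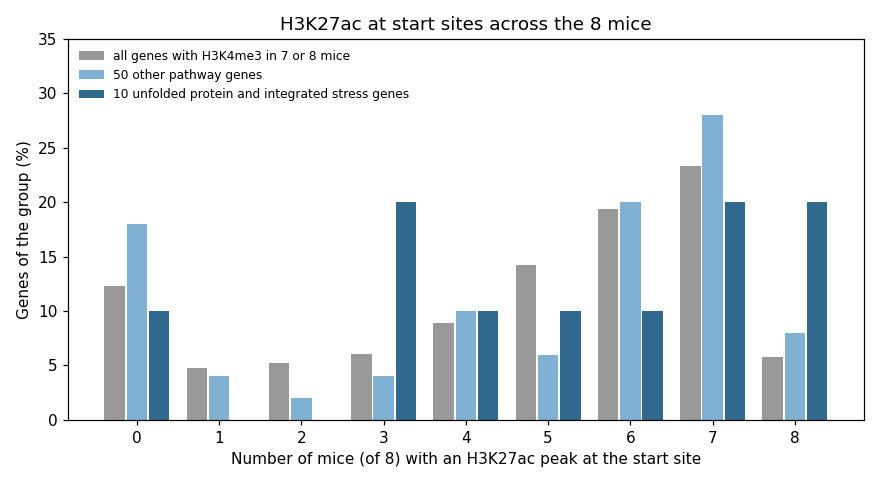
Share of genes in percent (y axis) by the number of mice with an H3K27ac peak at the start site (x axis, 0 to 8), for all 11390 genes with H3K4me3 in 7 or 8 mice (grey), the 50 other pathway genes (light blue) and the 10 genes described (dark blue). Each group spreads from 0 to 8 mice, and 23.3% of the grey group, 28% of the light blue and 20% of the dark blue lie at 7 mice.

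None of the 50 genes was present in all mice of one temperature or diet and absent from the other. H3K4me3 breadth overlapped between temperatures and between diets at all 50. H3K27ac breadth did not overlap by temperature at 1 gene, Ddit4, an inhibitor of mTOR signalling, which measured 2044 to 5130 bp in cold and 0 to 2008 bp in warm. By diet it did not overlap at Herpud1, a component of ER-associated degradation, with 562 to 1605 bp on HFD and 1607 to 2840 bp on NCD, and at Cebpb, with 0 to 664 bp on HFD and 802 to 2730 bp on NCD. These 3 were named after their values were seen, and their counts of 1 and 2 in 50 stand beside the 0.669% and 1.1% given above.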

How the data were processed

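ChIP-seq peak lists of 8 mice and 4 marks were used, 1 list per mark and mouse. The methods of the study and the processing notes of the submitters name cutadapt, Bowtie2 and MACS2 with matched inputs on GRCm38, with no version given in the sources. Each deposited peak has a fold enrichment, a ratio over local background made by the authors' peak caller, and −log10 p and −log10 q values, also from the authors' peak caller. The smallest −log10 q in any list was 1.30. Fold, p and q depend on the list, so presence and width were compared. Each list carries the number of 1 mouse. The methods also allow the reading that a pair of mice was pooled for each list, and p-values cover only the spread between these samples.

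Start sites came from the GENCODE M21 basic annotation (GRCm38). A peak belonged to a gene when its summit lay within 1000 bp of any start site. Ddit3 has 2 overlapping coding records, of which the first by gene identifier was used. Presence was tested by Fisher's exact test and breadth by an exact permutation test (two-sided) over 70 assignments for temperature, diet and their interaction and over 12870 for marks, with Benjamini-Hochberg adjustment over all genes with a peak in at least 1 list and a threshold of 0.05. Tests were checked on simulated data. Mouse numbers mark the same animal across marks, so marks were also compared within mice. Python 3.11.15, numpy 2.4.6 and scipy 1.17.1 were used. Alternatives were a summit within 500 bp, any overlap with the window, −log10 q of at least 5, lists of equal length within a mark, the outermost start site, width percentile, the replicate block and leaving out each mouse. The members were set by name and the 50 other genes were listed by role, and both were chosen with earlier results of these data known. Further genes of the 50 were named as examples after their values were seen. The rule for names covered the 10 genes, any of the 50 separated in presence by temperature or diet, controls, markers and neighbouring genes.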

Additional observations from a re-analysis of the deposited data

Results flagged for a closer look

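Breadth was checked for single mice that stood apart from the other 3 of their temperature or diet group, in the 50 groups of 4 in which all mice had a peak. A mouse stood apart in 5 of these groups, with 4 values in all. The limit used flags about 1 group in 20 for normal values in independent groups. Here each mouse enters both a temperature and a diet group, so no excess can be read from these counts. For H3K4me3 these were 207 bp at Eif2ak3 in mouse 7, beside 2299 to 2369 bp in the other warm mice, and 601 bp at Asns in mouse 7, beside 1029 to 1106 bp in the other warm mice and 1035 to 1112 bp in the other HFD mice. For H3K27ac they were 1255 bp at Hspa5 in mouse 1, beside 1883 to 1964 bp in the other NCD mice, and 1601 bp at Atf6 in mouse 2, beside 859 to 950 bp in the other NCD mice. The value of Eif2ak3 was 1121 bp with an upstream block counted whose summit lay just outside the window. Mouse 7 had the shortest lists of both marks, and the part of list length in these values was not tested.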

How the results depend on the processing

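Of 495 values recomputed under alternatives, 467 kept their direction and their side of the threshold or stayed within 1.5 times the reported count, and none reversed. The tally includes counts that could hardly change. These are the genes passing the adjustment by temperature or diet, and those with H3K4me1 or H3K27me3 in every mouse, where some lists were nearly empty. The H3K4me1 regions separated by temperature or diet, which could not occur, are also among them. It is therefore not a measure of how firm the results are. With only peaks of −log10 q of at least 5, H3K4me3 was in all 8 mice for 5 genes in place of 8, and H3K27ac for 0 in place of 2. The share of all coding genes fell likewise, to 30.2% from 41.5% and to 1.05% from 3.11%. Leaving out 1 mouse at a time, the count of genes with the mark in every mouse was 8 to 10 for H3K4me3 and 2 to 4 for H3K27ac. The share of all coding genes ran from 41.6% to 51.2% and from 3.12% to 15.3%. The number of genes without overlap in breadth was then 1 to 2 by temperature and 0 to 1 by diet for H3K4me3, and 0 to 1 by temperature and 0 to 1 by diet for H3K27ac, where the share of all genes tested ran from 0.844% to 8.47% and 3.60% to 22.5%, and 0.744% to 5.29% and 1.18% to 7.52%. Presence of H3K27ac separated 0 to 1 genes by temperature, the 1 being Trib3 without mouse 2. The share of all genes separated in presence without mouse 2 was not computed, so no excess can be read from this count. That share can be no larger than the 2.28% without overlap in H3K27ac breadth by temperature without that mouse. The added genes were, for H3K4me3, Eif2ak3 (wider in warm) and Atf6 (wider on HFD) without mouse 7, Eif2ak3 (wider on NCD) without mouse 8, both Eif2ak3 calls resting on the 1000 bp window, and Xbp1 (wider on NCD) without mouse 11, where 22.5% of all genes tested did not overlap, and for H3K27ac, Trib3 without mouse 2 (wider in cold) or mouse 1 (wider on NCD) and Atf6 (wider on NCD) without mouse 8. Without mice 7 and 10, a setting chosen after seeing the data, H3K27ac was in every mouse for 4 genes, beside 24.2% of all coding genes. Breadth then did not overlap at 2 genes by temperature and 2 by diet for H3K4me3 and at 1 by diet for H3K27ac. These counts stood beside 10.3%, 18.5% and 11.2% of all genes tested. Width percentile within the list in place of bp gave 2 genes by temperature for H3K4me3, Trib3 and Chac1, beside 4.22% of all genes tested, and a summit within 500 bp gave 1 for H3K27ac, Ddit3, beside 0.551%. With the mouse number as a replicate block, H3K4me3 was wider than H3K27ac at 8 genes in place of 7. That comparison gave 6 to 7 genes without 1 mouse at a time. Trib3 lost the call without mouse 1, 4, 8, 10 or 11 and by width percentile (adjusted p 0.0594 to 0.135, exact permutation). Xbp1 and Ddit3 gained the call with lists of equal length (exact permutation, adjusted p = 0.000857 and 0.00031). There the H3K27ac lists were cut shorter than the H3K4me3 lists, so these gains are no check of the difference. Ddit3 also gained the call with a summit within 500 bp (exact permutation, adjusted p = 0.00784), and Atf4 without mouse 11 (0.0346). The causes were not tested. The length of the lists, whose depth is unknown, limits every absence given here.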
